A study of Mus musculus with 6 samples.

Results

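The genes of the major histocompatibility complex (MHC, called H2 in the mouse) and of its assembly and control machinery were followed in mouse liver. Members were chosen by name alone from the deposited table of 55573 genes: 41 genes whose name starts with H2-, plus B2m, Tap1, Tap2, Tapbp, Cd74, Ciita and Nlrc5, making 48. Another 4 names marked as pseudogenes with -ps were left out. Of the 48 members, 29 were class I heavy chain genes (2 classical and 27 non-classical), 4 class I partners, 10 class II genes, 2 transactivators and 3 other genes with an H2- name. The annotation calls 7 of the 48 pseudogenes.

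Libraries were made from polyA RNA of the liver of generation 3 mice on normal feed. The 3 control libraries, DKO, were labelled mTR-/-Wrn-/-, and the 3 p21TKO libraries p21-/-mTR-/-Wrn-/-. All 6 therefore share the loss of mTR, the RNA template of telomerase, and of Wrn, a RecQ helicase, and differ by the label for p21 (Cdkn1a), an inhibitor of cyclin-dependent kinases. The stated question was which pathways change when p21 is lost. All 6 titles carry the tag 2M, which the labels do not explain. The sources used here do not state strain, sex, the deleted exons, or whether replicates were separate animals, and give no age in words. Each p-value is therefore set against the spread between libraries, which may be technical.

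MHC class I molecules present peptides from inside the cell to CD8 T cells. Their heavy chain pairs with beta-2-microglobulin (B2m) in the endoplasmic reticulum, where tapasin (Tapbp) holds the empty molecule. The TAP transporter (Tap1 and Tap2) brings the peptides there. Nearly all cells make class I, hepatocytes included. Class II molecules present peptides taken up from outside, are made mainly by B cells, dendritic cells and macrophages, and travel with the invariant chain Cd74. NLRC5 and CIITA are the coactivators that switch on class I and class II promoters, and interferon gamma raises both. H2 haplotypes differ in sequence and gene content between mouse strains.

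Most members lie on the chromosome that carries Cdkn1a. On the GRCm38 annotation 44 of 48 were on chromosome 17, and 4 (B2m on 2, Nlrc5 on 8, Ciita on 16 and Cd74 on 18) were not. The 44 started between 4.82 Mb (Tapbp) and 8.39 Mb (H2-M2) from the start of Cdkn1a (chromosome 17, 29090976 to 29100727). Cdkn1a itself stood at 0.761, 1.79 and 0.405 FPKM in DKO replicates 1 to 3 and at 1.41, 11.05 and 6.5 FPKM in p21TKO replicates 1 to 3. FPKM are read counts scaled by exon length and library size. The deleted part is not known, so these values cannot check the label, and directions below rest on it.

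Reads behind the values came from denominators of 19363285 to 27061291 reads per library. Y-linked transcripts had reads in 3 libraries (DKO replicate 2, DKO replicate 3, p21TKO replicate 1) and none in the other 3. The first principal component (57.2% of variance) placed p21TKO replicates 2 and 3 at 44.4 and 56.6 and the other 4 libraries between -34.6 and -7.7. The liver label held: 5 hepatocyte markers summed to between 36539 and 52668 FPKM in every library.

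The promoters below show the letters that the MHC control machinery is known to read, for 6 members that carry most of the results. Each is the RefSeq window (GRCm38.p6, the C57BL/6J reference, not these mice) from 250 bases before to 50 after the start site, given 5′ to 3′ on the gene's strand. Capitals mark matches on either strand to 4 motifs: the enhancer A site of NF-kappa-B, the core of the interferon-stimulated response element, the X box (CTAGCAAC) and the Y box (ATTGG). The first is the 10-letter run of capitals in H2-K1 and H2-D1, the second that in B2m and H2-T23, and no 2 matches overlap in these windows.
H2-K1, chr17:34000298-34000597, minus strand: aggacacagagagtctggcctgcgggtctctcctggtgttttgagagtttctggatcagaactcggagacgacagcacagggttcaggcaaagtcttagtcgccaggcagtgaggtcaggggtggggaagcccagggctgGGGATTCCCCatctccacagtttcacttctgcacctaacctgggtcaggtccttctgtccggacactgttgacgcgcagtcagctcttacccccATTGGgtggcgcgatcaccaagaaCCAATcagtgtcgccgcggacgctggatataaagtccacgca
H2-D1, chr17:35262844-35263143, plus strand: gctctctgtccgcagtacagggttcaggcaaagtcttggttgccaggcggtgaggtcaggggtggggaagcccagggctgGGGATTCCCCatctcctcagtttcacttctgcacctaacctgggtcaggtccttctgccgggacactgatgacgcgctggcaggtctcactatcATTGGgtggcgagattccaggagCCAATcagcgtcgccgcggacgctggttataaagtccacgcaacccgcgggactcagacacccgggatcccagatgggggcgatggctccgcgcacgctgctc
B2m, chr2:122147437-122147736, plus strand: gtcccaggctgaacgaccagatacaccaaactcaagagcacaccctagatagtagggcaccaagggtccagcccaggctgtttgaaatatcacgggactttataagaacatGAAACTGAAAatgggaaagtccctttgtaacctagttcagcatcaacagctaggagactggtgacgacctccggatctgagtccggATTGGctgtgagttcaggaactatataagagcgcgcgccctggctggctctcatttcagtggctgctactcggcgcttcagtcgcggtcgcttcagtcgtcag
H2-T23, chr17:36032652-36032951, minus strand: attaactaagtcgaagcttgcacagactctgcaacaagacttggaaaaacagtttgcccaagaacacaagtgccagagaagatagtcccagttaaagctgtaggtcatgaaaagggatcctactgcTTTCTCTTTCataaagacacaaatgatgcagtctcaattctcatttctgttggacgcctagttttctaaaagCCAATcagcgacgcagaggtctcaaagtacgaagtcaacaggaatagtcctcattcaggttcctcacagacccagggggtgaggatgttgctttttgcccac
H2-Eb1, chr17:34305617-34305916, plus strand: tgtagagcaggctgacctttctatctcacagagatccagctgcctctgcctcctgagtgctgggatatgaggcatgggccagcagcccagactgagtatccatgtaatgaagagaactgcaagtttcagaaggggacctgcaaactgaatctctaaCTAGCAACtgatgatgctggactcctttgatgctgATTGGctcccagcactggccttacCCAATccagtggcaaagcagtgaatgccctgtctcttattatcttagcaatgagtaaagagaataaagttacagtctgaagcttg
H2-Aa, chr17:34287774-34288073, minus strand: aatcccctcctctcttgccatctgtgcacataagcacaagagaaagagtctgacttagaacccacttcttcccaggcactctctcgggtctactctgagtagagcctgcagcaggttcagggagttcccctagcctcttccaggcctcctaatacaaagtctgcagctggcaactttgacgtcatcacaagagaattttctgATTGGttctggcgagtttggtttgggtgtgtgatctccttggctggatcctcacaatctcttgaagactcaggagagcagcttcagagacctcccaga

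The classical class I promoters shared the enhancer A letters, and the class II promoter of H2-Eb1 held an X box instead. Y box letters were in the windows of H2-K1, H2-D1 and H2-Eb1 alike. Windows matched 34 of the 48 members by symbol. Enhancer A letters were in those of 3 members (H2-K1, H2-D1 and H2-Q6), and in 0.0852% of all 32851 windows. The response element core was in 3 members (B2m, H2-T22 and H2-T23), and in 3.44% of all windows. The X box was in 3 members, all class II (H2-Eb1, H2-Eb2 and H2-Ob), and in 1.32% of all windows. The short Y box was in 31 of 34 members, and in 37.4% of all windows. A match is a description of letters, not of a bound site. The search allowed no mismatch, so a window without a match may still hold a variant of the site. That the H2-K1 and H2-D1 windows had no match to the response element core is therefore no evidence that they lack such an element.

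MHC expression in these livers was almost entirely class I. Of the 48 members, 21 had a mean of at least 1 FPKM and were tested, 15 had reads below that, and 12 had no read in any library. B2m was the most abundant member, at 1137 to 3169 FPKM. H2-K1, H2-Q10 and H2-D1 followed, and together they made 85.2% to 89.6% of all class I heavy chain FPKM. H2-Q10, which encodes a secreted class I molecule made by the liver, therefore stood at the level of the classical chains. The 10 class II members summed to only 18.0 to 82.9 FPKM, against 1132 to 1698 FPKM for the 29 class I heavy chains.

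**Figure D1:**
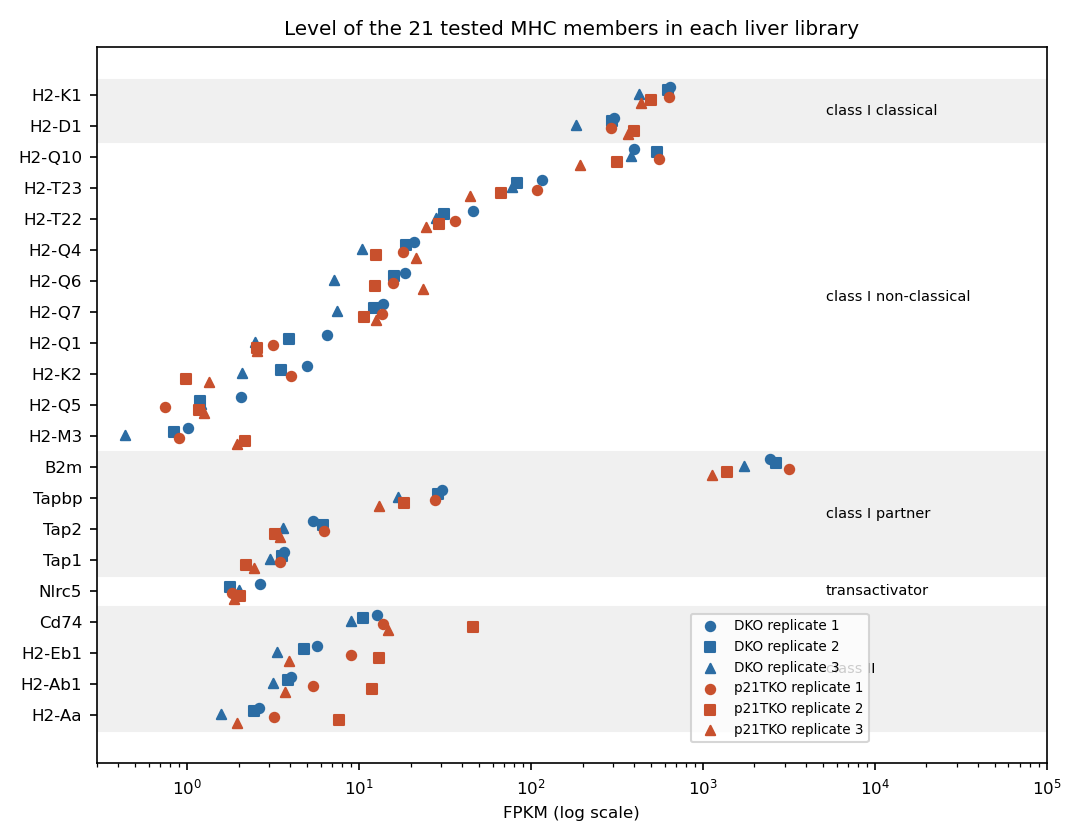
FPKM (log axis) of the 21 tested members in each of the 6 libraries, blue for DKO and orange for p21TKO, with circles, squares and triangles for replicates 1 to 3. B2m lies highest, at 1137 to 3169 FPKM, and for Cd74 and the class II chains p21TKO replicate 2 lies above all other libraries.

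No member passed the test between the groups. Differences were taken on log2(FPKM + 1), p21TKO minus DKO, with limma over 9538 genes and Benjamini-Hochberg adjustment, and called at an adjusted p under 0.05. Of the 21 tested members 0 were called (smallest limma adjusted p = 0.523), where 0.0734% of all tested genes were. At an unadjusted p under 0.05 there were 0 members, against 9.38% of all tested genes. limma voom on reads recovered from the FPKM also called 0 members, with 0 at an unadjusted p under 0.05 (smallest limma voom adjusted p = 0.529), where it called 0.0105% of all genes and 9.24% at the unadjusted threshold. By value alone 9 members were higher and 12 lower, with a median log2 difference of -0.10, beside 0.0016 for all tested genes. The groups did not overlap for 1 of the 21, Cd74, or 4.76%, where 15.4% of all tested genes had groups that did not overlap. Split by direction, 0.0315% of all tested genes were called higher and 0.0419% lower, and 6.93% lay wholly higher and 8.49% wholly lower. A p above the threshold is no evidence of equal levels. Within the libraries without Y-linked reads (1 DKO, 2 p21TKO) and within those with them (2 DKO, 1 p21TKO), 13 of the 21 members had differences of opposite sign, 6 were higher in both sets and 2 lower in both. Each set rests on 1 library on one side. p21TKO replicates 2 and 3, apart on the first principal component, are both in the set without Y-linked reads, and p21TKO replicate 1 is in the other. Y-linked reads and this division of the p21TKO libraries therefore cannot be told apart. The share of opposite signs over all tested genes is not given here. The median of the members was 0.008 without DKO replicate 1, -0.29 without DKO replicate 3 and 0.081 over the 13 members with a mean of at least 5 FPKM.

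**Figure D2:**
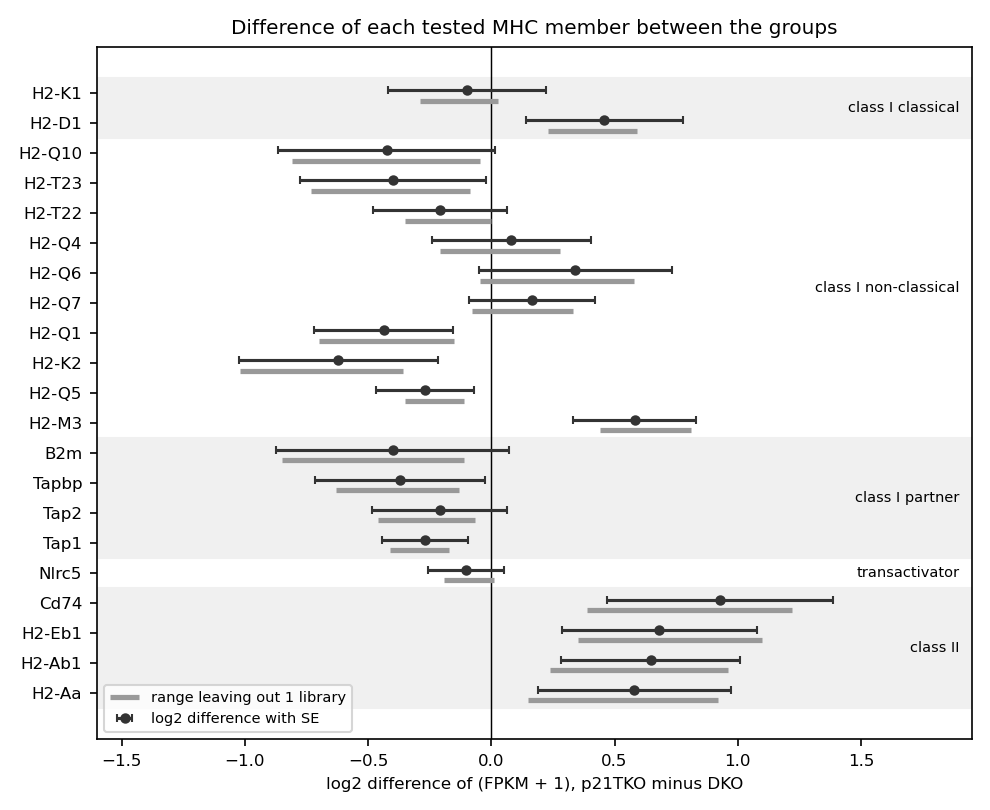
Log2 difference of (FPKM + 1), p21TKO minus DKO, with its SE (black) for each tested member, and in grey the range of the same difference when each library is left out in turn. All 4 class II members lie right of 0, and the 4 class I partners lie left of it.

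H2-K1 (chromosome 17, 33996017 to 34000347) and H2-D1 (chromosome 17, 35262730 to 35267499) are the classical class I chains. H2-K1 stood at 645, 627 and 427 FPKM in DKO replicates 1 to 3 and at 640, 503 and 438 FPKM in p21TKO replicates 1 to 3. The groups overlapped fully, and the log2 difference was -0.10 (SE 0.32, limma adjusted p = 0.928), or -0.46 without and 0.31 with Y-linked reads. H2-D1 stood at 304, 295 and 184 FPKM in DKO and at 293, 400 and 367 FPKM in p21TKO. Here p21TKO replicates 2 and 3 were above every DKO library and p21TKO replicate 1 was among them. The log2 difference was 0.46 (SE 0.32, limma adjusted p = 0.626), 0.33 in each of the sets without and with Y-linked reads, and 0.23 without DKO replicate 3. In the set with Y-linked reads, p21TKO replicate 1 (293 FPKM) stood beside DKO replicate 2 (295 FPKM). The 0.33 of that set therefore rests on DKO replicate 3 (184 FPKM).

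The balance of these 2 chains set p21TKO replicates 2 and 3 apart. The ratio of H2-K1 to H2-D1 was 2.12, 2.12 and 2.32 in DKO replicates 1 to 3, and 2.19, 1.26 and 1.2 in p21TKO replicates 1 to 3. The DKO libraries and p21TKO replicate 1 lay close together, and p21TKO replicates 2 and 3 lay apart from them. The means were 2.19 ± 0.112 and 1.55 ± 0.555 (SD, n = 3 each). Of the class I heavy chain FPKM, the H2-D1 share was 16.3% to 19.2% in DKO and 17.3%, 29.3% and 32.3% in p21TKO. The H2-K1 share moved little, from 36.8% to 40.8% over all 6 libraries. Among libraries without Y-linked reads the H2-K1 to H2-D1 ratio was 2.12 in DKO against 1.26 and 1.2, and among those with them 2.12 and 2.32 in DKO against 2.19.

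H2-Q10 (chromosome 17, 35470089 to 35474563) was lowest where the H2-D1 share was highest. It stood at 400, 545 and 382 FPKM in DKO replicates 1 to 3, and at 560, 319 and 193 FPKM in p21TKO replicates 1 to 3. The log2 difference was -0.42 (SE 0.44, limma adjusted p = 0.740). It was -0.81 without p21TKO replicate 1, -0.26 without DKO replicate 2 and -0.047 without p21TKO replicate 3, and it was -0.69 among libraries without Y-linked reads against 0.29 among those with them. Its share of class I heavy chain FPKM ran from 25.3% to 33.7% in DKO, and was 33.0%, 23.4% and 17% in p21TKO. H2-Q10 over H2-D1 was 1.32, 1.85 and 2.07 in DKO and 1.91, 0.798 and 0.525 in p21TKO.

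B2m pairs with every one of these chains and is encoded on chromosome 2 (122147686 to 122153083). It stood at 2451, 2677 and 1741 FPKM in DKO and at 3169, 1381 and 1137 FPKM in p21TKO. p21TKO replicate 1 had the highest level of all 6 libraries and p21TKO replicates 2 and 3 the lowest. The log2 difference was -0.40 (SE 0.47, limma adjusted p = 0.770). It was -0.85 without p21TKO replicate 1, -0.25 without p21TKO replicate 2 and -0.11 without p21TKO replicate 3, and it was -0.97 among libraries without Y-linked reads against 0.55 among those with them. B2m per class I heavy chain FPKM was 1.55, 1.63 and 1.54 in DKO and 1.87, 1.01 and 1 in p21TKO.

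**Figure D3:**
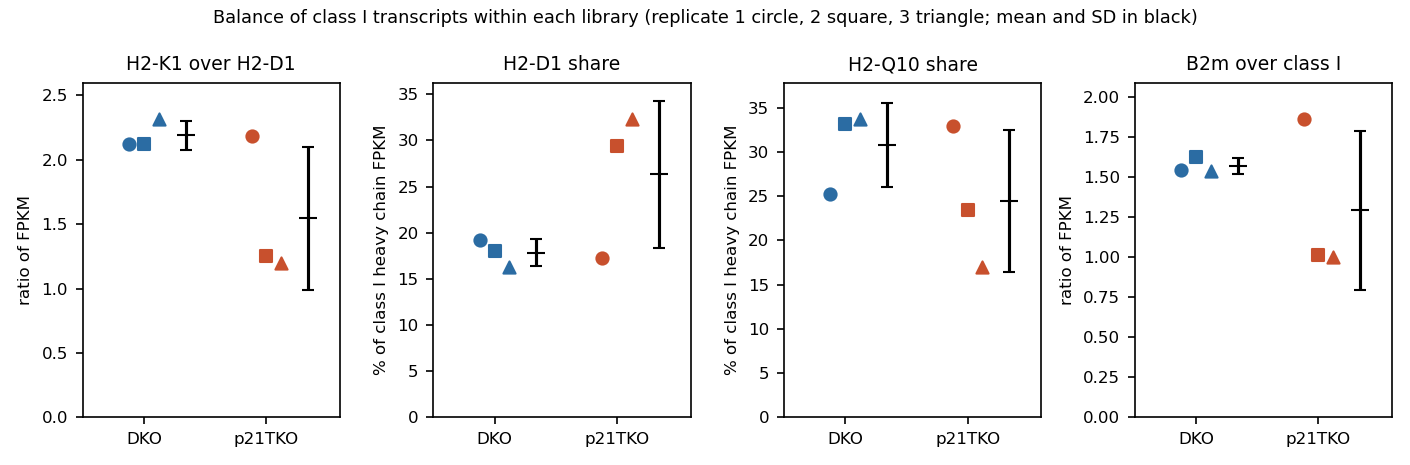
Ratio of H2-K1 to H2-D1, shares of H2-D1 and H2-Q10 among class I heavy chain FPKM, and B2m over that sum, for each library, with mean and SD of each group in black (n = 3). In the first and last panels p21TKO replicates 2 and 3 lie below all DKO libraries and p21TKO replicate 1 lies among or above them.

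None of 4 such ratios separated the groups in an exact two-sided permutation test over libraries, which cannot go below p = 0.1 with 3 against 3. H2-K1 over H2-D1 and H2-Q10 over H2-D1 gave an exact p = 0.3 each, and B2m over class I and Cd74 over H2-Ab1 an exact p = 0.4 each (Benjamini-Hochberg adjusted p = 0.4 for all 4). The ratios were chosen after the values were seen. Class I genes resemble each other. Of 50-base windows, 9.63% in H2-K1 transcripts, 12.8% in H2-D1 and 19.0% in H2-Q10 also occur in another gene. Part of their reads could therefore be assigned to a relative. At 100 bases the shares were 0.96%, 3.59% and 8.01%. The part of shared sequence in these ratios was not tested. The H2 haplotype of the mice is not stated, and its effect on FPKM of these genes was not tested.

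The remaining class I partners had lower group means in p21TKO, and none was called. Tap1 (chromosome 17, 34187553 to 34197225), a subunit of the peptide transporter, stood at 3.69, 3.56 and 3.04 FPKM in DKO and at 3.47, 2.20 and 2.46 FPKM in p21TKO. Only p21TKO replicate 1 lay within the DKO range (log2 difference -0.27, SE 0.17, limma adjusted p = 0.608). Tap2, the other subunit, ran from 3.62 to 6.23 FPKM in DKO and from 3.24 to 6.28 FPKM in p21TKO (-0.21). Tapbp, encoding tapasin, stood at 30.3, 28.8 and 17 FPKM in DKO and at 27.6, 18.3 and 13.1 FPKM in p21TKO (-0.37), so that only p21TKO replicate 3 lay below all DKO libraries. All 4 partners were lower by value (median log2 difference -0.32), and 0 of 4 were called. The direction held only in the libraries without Y-linked reads, where p21TKO is replicates 2 and 3 (Tap1 -0.50, Tap2 -0.55, Tapbp -0.93). Among the libraries with Y-linked reads, where p21TKO is replicate 1 alone, all 4 were higher in p21TKO (Tap1 0.06, Tap2 0.33, Tapbp 0.31, with B2m as above). Tap2 was -0.066 without p21TKO replicate 2 and Tapbp -0.13 without p21TKO replicate 3. Exons of other genes cover 29.0% of the Tapbp exon bases, 18.5% of those of Tap2 and 3.87% of those of Tap1, where Psmb9 runs on the opposite strand. Whether counting used strand is not stated in the sources.

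Nlrc5, the class I coactivator gene, stood at 2.65, 1.78 and 2 FPKM in DKO and at 1.84, 2.03 and 1.87 FPKM in p21TKO. The p21TKO libraries all lay inside the DKO range (log2 difference -0.10, SE 0.15, limma adjusted p = 0.825).

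The non-classical class I genes went both ways. H2-M3 (chromosome 17, 37270220 to 37274484), which presents N-formylated peptides, had the smallest p of the tested members. Its group means were 0.764 FPKM in DKO and 1.68 FPKM in p21TKO, so it passed the filter only through p21TKO, where it was higher. It stood at 1.01, 0.840 and 0.438 FPKM in DKO (35, 26 and 14 reads) and at 0.898, 2.18 and 1.953 FPKM in p21TKO (25, 72 and 76 reads). p21TKO replicates 2 and 3 were above all DKO libraries and p21TKO replicate 1 was not. The log2 difference was 0.58 (SE 0.25, limma adjusted p = 0.523), and 0.81 without p21TKO replicate 1 (limma adjusted p = 0.0692). It was 0.61 among libraries without Y-linked reads and 0.22 among those with them.

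H2-K2 and H2-Q1 had lower values in p21TKO. H2-K2 (chromosome 17, 33974659 to 33978827), annotated as a transcribed pseudogene beside H2-K1, stood at 5.03, 3.53 and 2.10 FPKM in DKO and at 4.01, 0.992 and 1.34 FPKM in p21TKO. p21TKO replicates 2 and 3 were below all other libraries. The log2 difference was -0.62 (SE 0.40, limma adjusted p = 0.606), or -1.02 without p21TKO replicate 1 (limma adjusted p = 0.0974). It was -1.48 among libraries without Y-linked reads and 0.42 among those with them. H2-Q1 (chromosome 17, 35320405 to 35325099) stood at 6.53, 3.95 and 2.5 FPKM in DKO and at 3.18, 2.56 and 2.55 FPKM in p21TKO. Its DKO libraries spread wider than the groups differed (-0.44, SE 0.28, limma adjusted p = 0.606), and without DKO replicate 1 the difference was -0.15. It was -1.08 among libraries without Y-linked reads and 0.0053 among those with them.

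H2-T23 encodes Qa-1, which presents leader peptides of other class I chains to NK cell receptors. It ran from 78.0 to 117 FPKM in DKO and from 44.4 to 109 FPKM in p21TKO (-0.40, SE 0.38, limma adjusted p = 0.716). Leaving out p21TKO replicate 3 gave -0.087 and leaving out p21TKO replicate 1 gave -0.73, and it was -1.08 without and 0.43 with Y-linked reads. H2-T22, a ligand of some gamma-delta T cell receptors, ran from 28 to 46.3 FPKM in DKO and from 24.6 to 36.4 FPKM in p21TKO (-0.21, and -0.77 without against 0.29 with Y-linked reads). Both were lowest in p21TKO replicate 3. Of 50-base windows in H2-T22 transcripts 34.5% occur in another gene, most of them in H2-T10, so its value is uncertain.

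H2-Q4, H2-Q6 and H2-Q7 stood close together and were lowest in DKO replicate 3. H2-Q6 was at 18.5, 16.0 and 7.19 FPKM in DKO and at 15.8, 12.4 and 23.5 FPKM in p21TKO. H2-Q4 ran from 10.4 to 21 FPKM in DKO and from 12.6 to 21.6 FPKM in p21TKO. H2-Q7, a Qa-2 gene, ran from 7.43 to 13.8 FPKM in DKO and from 10.7 to 13.7 FPKM in p21TKO. Their log2 differences were 0.08, 0.34 and 0.17 for H2-Q4, H2-Q6 and H2-Q7, and became -0.21, -0.045 and -0.079 without DKO replicate 3. H2-Q5, annotated as a polymorphic pseudogene, ran from 1.2 to 2.07 FPKM in DKO and from 0.747 to 1.25 FPKM in p21TKO (-0.27). Of the 50-base windows of H2-Q5, H2-Q6 and H2-Q7, 36.5%, 32.0% and 26.4% occur in another gene, so reads may be divided between these copies.

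Over the 12 tested class I heavy chains, 5 had higher and 7 lower values, 0 were called and 0 had groups that did not overlap. Their median log2 difference was -0.15, beside 0.0016 for all tested genes. It was 0.004 without DKO replicate 1, -0.32 without DKO replicate 3 and -0.008 over those with a mean of at least 5 FPKM, so both its sign and its size turn on single DKO libraries.

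Class II transcripts were highest in p21TKO replicate 2. Cd74, the invariant chain gene (chromosome 18, 60803848 to 60812652), stood at 12.7, 10.6 and 9 FPKM in DKO replicates 1 to 3 and at 13.8, 45.9 and 14.7 FPKM in p21TKO replicates 1 to 3. The groups did not overlap, with p21TKO replicates 1 and 3 just above DKO replicate 1. The log2 difference was 0.93 (SE 0.46, limma adjusted p = 0.544). It was 0.99 among libraries without Y-linked reads, 0.46 among those with them, and 0.39 without p21TKO replicate 2.

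The alpha and beta chains of the class II molecules followed the same library. H2-Ab1, the I-A beta chain (chromosome 17, 34257689 to 34269419), stood at 4.05, 3.85 and 3.19 FPKM in DKO and at 5.43, 12 and 3.73 FPKM in p21TKO. p21TKO replicate 3 was among the DKO libraries and the other 2 were above them (log2 difference 0.65, SE 0.36, limma adjusted p = 0.576). H2-Eb1, the I-E beta chain (chromosome 17, 34305867 to 34316674), stood at 5.72, 4.83 and 3.33 FPKM in DKO and at 9.03, 13.1 and 3.95 FPKM in p21TKO. Its order of libraries was that of H2-Ab1 in p21TKO (0.68, SE 0.39, limma adjusted p = 0.583). H2-Aa, the I-A alpha chain (chromosome 17, 34282744 to 34287823), stood at 2.64, 2.46 and 1.58 FPKM in DKO and at 3.22, 7.65 and 1.97 FPKM in p21TKO. Here too p21TKO replicate 3 fell within the DKO range (0.58, SE 0.39, limma adjusted p = 0.616).

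All 4 tested class II members had higher values in p21TKO, with a median log2 difference of 0.66, and 0 were called. With no filter on low values, 6 of the 10 class II members were higher and 4 lower, with a median of 0.42. Each of the 4 tested members was higher in both the set without and the set with Y-linked reads (H2-Ab1 0.63 and 0.51, H2-Eb1 0.31 and 0.997, H2-Aa 0.48 and 0.50). In the set without them, the direction of the chains rests on p21TKO replicate 2. There p21TKO replicate 3 was below DKO replicate 1 for H2-Ab1 (3.73 against 4.05 FPKM), H2-Eb1 (3.95 against 5.72 FPKM) and H2-Aa (1.97 against 2.64 FPKM). Without p21TKO replicate 2 the differences were 0.24 for H2-Ab1, 0.35 for H2-Eb1 and 0.15 for H2-Aa. Leaving out p21TKO replicate 2 gave a median of 0.29, and leaving out p21TKO replicate 3 gave 1.03. Summed over the 10 class II members, DKO held 26.3, 23.2 and 18.0 FPKM and p21TKO 33.1, 82.9 and 25.5 FPKM. Cd74 per H2-Ab1 ran from 2.75 to 3.14 in DKO and from 2.55 to 3.96 in p21TKO.

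The peptide-exchange genes of class II stood under the filter and got no test. H2-DMb1 had 13, 24 and 16 reads in DKO and 20, 119 and 31 reads in p21TKO, and H2-DMa had 39, 25 and 25 reads against 38, 87 and 34 reads. Both were highest in p21TKO replicate 2, as the class II chains were. Of 50-base windows in H2-DMb1, 22.6% also occur in H2-DMb2, which had 0 to 8 reads per library. H2-Oa and H2-Ob encode subunits of the DM inhibitor. H2-Oa had 1, 8 and 1 reads in DKO and 3, 1 and 0 reads in p21TKO. H2-Ob had 15, 4 and 9 reads against 6, 4 and 1 reads, so neither was highest in p21TKO replicate 2. Ciita, the class II coactivator gene, had 20, 8 and 11 reads in DKO and 5, 39 and 12 reads in p21TKO.

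The other members under the filter were low in both groups. Those with most reads in all 6 libraries together were H2-T10 (331), H2-DMa (248), H2-Q2 (233) and H2-DMb1 (223), followed by H2-T24 (220). H2-Bl (80), H2-Ke6 (31), H2-Eb2 (6), H2-M5 (2) and H2-M10.2 (2) had fewer. H2-Ke6 is no antigen-presenting gene, and another gene's exons cover 86.4% of its exon bases. H2-M2 had 0 reads in the 3 DKO libraries and 7, 0 and 3 reads in p21TKO. Of the 12 members with no read, 8 were H2-M genes and the others were H2-Q3, H2-T3, H2-Pa and H2-Pb. At 3 reads in a library they would have reached 0.0406 to 0.301 FPKM, a limit for counting error only.

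Markers of the cells that make class II moved with these values in part. Summed over 11 Kupffer cell and macrophage markers, DKO ran from 55.0 to 126 FPKM and p21TKO stood at 41.7, 377 and 207 FPKM in replicates 1 to 3. None of the 11 was at 0, 11 of 11 had higher values, and 0 were called. p21TKO replicate 2 was highest for these and for class II, while p21TKO replicate 3 was above all DKO libraries for these and within the DKO range for the class II sum. The 8 dendritic cell markers were all under the filter and summed to 1.03 to 1.24 FPKM in DKO and 0.749 to 1.24 FPKM in p21TKO, with Cd209a at 0 in 2 DKO libraries and Siglech in 1 p21TKO library. The 7 B cell markers summed to 2.07 to 8.99 FPKM in DKO and 1.84 to 2.47 FPKM in p21TKO, with Cd79a, Cd79b, Fcmr, Ms4a1 and Pax5 each at 0 in 1 p21TKO library. The part of these cells in the class II values was not tested. In a bulk sample a change in the number of such cells and in RNA per cell cannot be told apart.

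Other cell types showed which libraries stood apart. The 8 neutrophil markers summed to 10.2 to 27.7 FPKM in DKO and to 24.3, 549 and 219 FPKM in p21TKO, with Ngp and Camp at 0 in 1 DKO library and Ly6g in 2. The 6 endothelial markers, none at 0, summed to 9.01 to 15.2 FPKM in DKO and to 6.29, 56.4 and 28.1 FPKM in p21TKO. The 11 T and NK cell markers were under the filter and summed to 2.32 to 4.02 FPKM in DKO and 0.768 to 1.59 FPKM in p21TKO, with Cd8b1 and Ncr1 at 0 in 1 DKO library and Cd8b1, Cd3g, Cd3e and Klrb1c in 1 p21TKO library. p21TKO replicates 2 and 3, which had the highest H2-D1 shares, were also the highest in neutrophil and endothelial markers. The part of these cells in the class I balance was not tested.

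**Figure D4:**
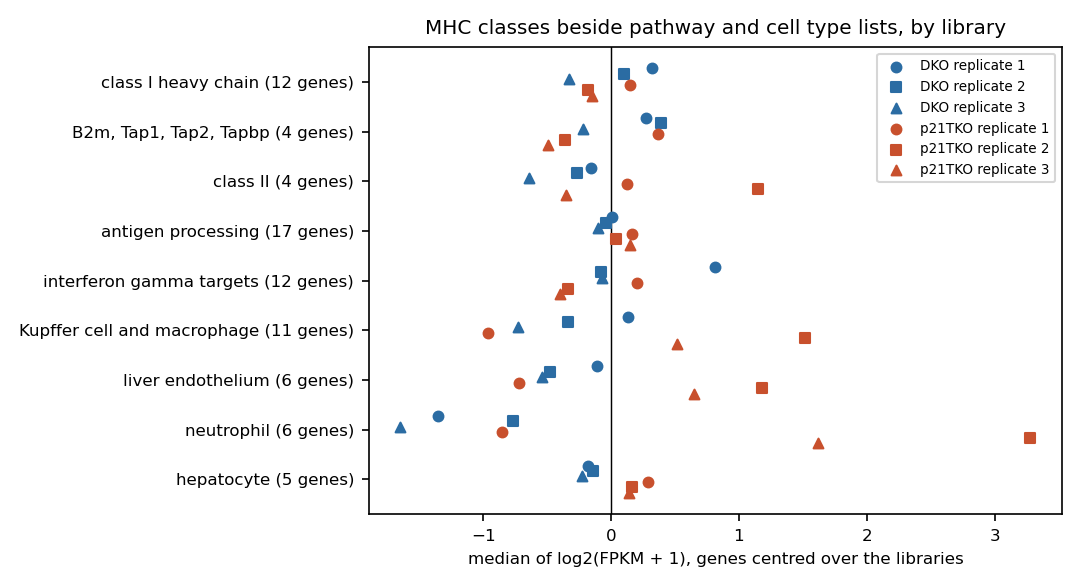
Median over each list of log2(FPKM + 1), with each gene centred on its mean over the 6 libraries, by library. For class II p21TKO replicate 2 stands alone at 1.15, while for Kupffer cell, endothelial and neutrophil markers p21TKO replicates 2 and 3 both stand high.

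Genes that feed peptides to the MHC were followed in a list of 21, of which 17 were tested, 8 with higher and 9 with lower values. Their median log2 difference was -0.033, and 0 were called. The median was 0.13 without p21TKO replicate 1, 0.02 without p21TKO replicate 3 and -0.097 over genes with a mean of at least 5 FPKM. The groups did not overlap for 11.8% of the 17, near the 15.4% of all tested genes. Calr, a chaperone of the class I loading complex, stood at 182, 235 and 187 FPKM in DKO and at 283, 367 and 473 FPKM in p21TKO, above DKO in all 3 (0.87, limma adjusted p = 0.523). Ctsl, a cathepsin that cleaves the invariant chain, stood at 75.1, 59.8 and 77.9 FPKM in DKO and at 63.6, 232 and 306 FPKM in p21TKO (1.22, limma adjusted p = 0.536). Pdia3, another subunit of the loading complex, ran from 113 to 148 FPKM in DKO and from 147 to 213 FPKM in p21TKO. Nfyb, a subunit of the factor that binds the Y box, ran from 6.10 to 7.58 FPKM in DKO and from 4.02 to 6.87 FPKM in p21TKO.

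The subunits of the immunoproteasome, which cuts peptides for class I, had values ordered much as those of Tap1. Psmb9, whose gene is next to Tap1, stood at 8.39, 6.64 and 4.97 FPKM in DKO and at 6.87, 3.08 and 1.69 FPKM in p21TKO (-0.77, limma adjusted p = 0.555). Psmb10 (33.6, 36.9 and 23 against 34, 16.3 and 11.5 FPKM) and Psmb8 (12.4, 10.9 and 7.08 against 12, 6.84 and 4.13 FPKM) were likewise lowest in p21TKO replicates 2 and 3. Cathepsin S (Ctss), which makes the last cut of the invariant chain, went the other way in those libraries, at 10.7, 7.15 and 5.27 FPKM in DKO and 3.88, 43.9 and 31.6 FPKM in p21TKO. Without p21TKO replicate 1, 3 genes of this list passed: Ctss (2.18, limma adjusted p = 0.021), Ctsl (1.904, limma adjusted p = 0.0208) and Lgmn (1.28, limma adjusted p = 0.0271), all lysosomal proteases. Removing that library also raised the calls over all genes from 7 to 495.

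Interferon gamma targets had lower values in most of the list, a direction that turned on DKO replicate 1. Of 21 listed genes 12 were tested, 2 with higher and 10 with lower values (median log2 difference -0.26), and 0 were called or had groups that did not overlap. Iigp1, an immunity-related GTPase gene, stood at 78.7, 41.2 and 59.9 FPKM in DKO and at 50.1, 21.6 and 22.1 FPKM in p21TKO (-0.98, limma adjusted p = 0.523). Cxcl9, a T cell chemokine gene, stood at 5.02, 1.45 and 2.10 FPKM in DKO and at 2.23, 0.361 and 0.110 FPKM in p21TKO (-1.08, limma adjusted p = 0.531). Both were lowest in p21TKO replicates 2 and 3. Cxcl9 (means 2.86 FPKM in DKO and 0.899 FPKM in p21TKO) passed the filter only through DKO, where it was higher. Gbp7 (-0.77) and Irgm1 (-0.37) had limma adjusted p of 0.548 and 0.606. DKO replicate 1 was the highest library for the list, with a centred median of 0.815 against -0.082 and -0.073 in the other 2 DKO libraries. Without it 7 genes were higher and 5 lower (median 0.019), and without p21TKO replicate 1 the median was -0.58.

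Genes lying among the H2 genes were compared last, since they share the region. Between the outermost H2- members 68 other genes were tested, 41 higher and 27 lower by value (median log2 difference 0.059), and 0 were called. The split was 33 to 35 without DKO replicate 1 (median -0.014), 32 to 36 without p21TKO replicate 1 (-0.022) and 34 to 34 with mitochondrial genes out of the library total (0.017). The groups did not overlap for 11.8% of them, and for 0% of the 18 tested members on chromosome 17. Tubb5, a beta-tubulin gene, stood at 9.22, 8.23 and 9.04 FPKM in DKO and at 14.8, 18.5 and 27.1 FPKM in p21TKO (1.07, limma adjusted p = 0.438). Gpsm3 (0.67) was also above DKO in all 3 p21TKO libraries, Cyp21a2-ps (-0.92) below, and Gm8741 (0.64) above, each with a limma adjusted p of 0.515. Without p21TKO replicate 1, Tubb5 (1.25, limma adjusted p = 0.0341) and Atf6b (0.86, limma adjusted p = 0.0425) passed. These were 2 of the 68, in a setting where 495 of all 9538 tested genes passed.

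In the stretch from Cdkn1a to Tapbp, 38 genes were tested, 19 higher and 19 lower by value (median -0.0047), and 0 were called. With mitochondrial genes out of the total 15 were higher and 23 lower, and without DKO replicate 2 the split was 25 to 13. The groups did not overlap for 13.2% of them. Gm15318 stood at 3.69, 3.53 and 3.06 FPKM in DKO and at 1.78, 1.30 and 0.528 FPKM in p21TKO (-1.05, limma adjusted p = 0.420). It passed without p21TKO replicate 1 (-1.24, limma adjusted p = 0.0323). That was 1 of the 38, where 495 of all 9538 tested genes passed. Ppil1 (0.61), Rps28 (1.01) and Zfp871 (-0.76) followed by p, with limma adjusted p from 0.515 to 0.523. Measured by the share of genes with separate groups, both stretches were near the background of 15.4%. The members were not tested against their neighbours.

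**Figure D5:**
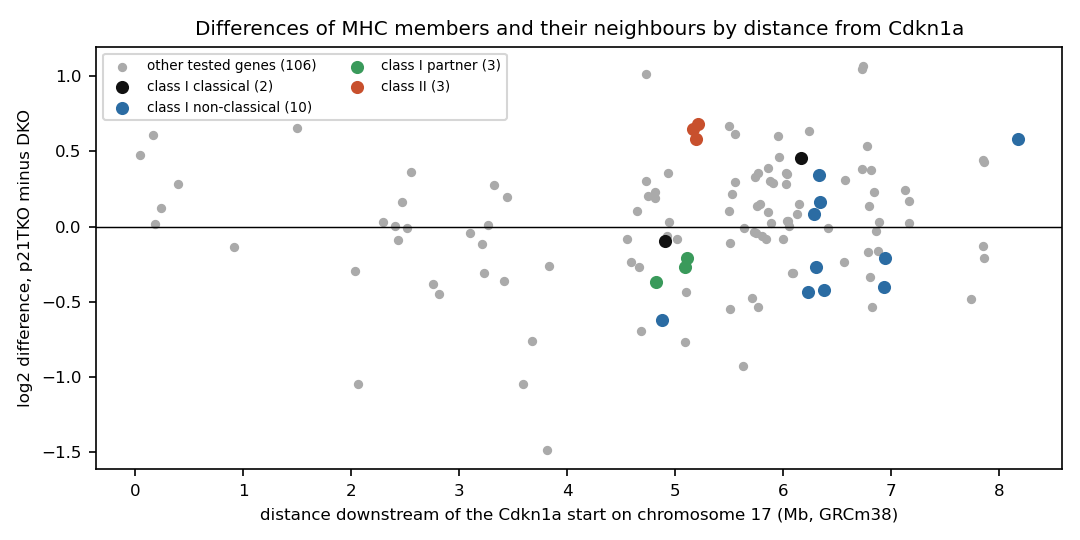
Log2 difference (p21TKO minus DKO) of tested genes against their distance downstream of the Cdkn1a start on chromosome 17 in Mb, with MHC members coloured by class and the 106 other tested genes in grey. Class II members sit together near 0.6 at about 5 Mb, and class I members lie on both sides of 0.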

How the data were processed

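Liver polyA RNA was sequenced from 3 DKO and 3 p21TKO libraries. For each gene the authors deposited FPKM, with 1 column for each library. The submitters' processing notes list DESeq2 1.20.0, featureCounts 1.5.0-p3, HISAT2 2.0.5, CASAVA 1.8 and fastp, without roles. They also list GRCh38 and hg38, which are human, although gene identifiers are mouse. Gene positions come from GENCODE M21 on GRCm38, to which 55480 of 55573 genes matched. FPKM multiplied by union exon length gave whole reads within 0.02 for 99.3% of values. A mean of 1 FPKM or more was required, which left 9538 genes for limma 3.58.1 (trend, two-sided, R 4.3.3), checked on simulated data. Scripts ran in Python 3.11.15 with scipy 1.17.1 and matplotlib 3.10.9. Members, lists and alternatives were chosen with earlier results of these data known. Named were all tested members, the 8 with the smallest p in every library, and 4 genes per list by p; Psmb8, Psmb9, Psmb10, Ctss, Lgmn and Atf6b were named after their values were seen. Alternatives were the pseudocount, the filter, 2 other scalings, the variance model, voom, a replicate block, a term for Y-linked reads and leaving out each library.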

Additional observations from a re-analysis of the deposited data

How the results depend on the processing

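In all 15 alternatives 0 members were called; among those that kept all 6 libraries and the same genes, the smallest limma adjusted p of a member ran from 0.516 to 0.746, and without p21TKO replicate 1 it was 0.0692 (H2-M3). The settings that kept all 6 libraries reversed no member. When each library was left out in turn, 5 members changed sign: H2-K1 (-0.29 to 0.026, and 0.008 without DKO replicate 1), H2-Q4 (-0.21 to 0.28, and -0.08 without p21TKO replicate 3), H2-Q6 (-0.045 to 0.58), H2-Q7 (-0.079 to 0.33) and Nlrc5 (-0.19 to 0.009). The cause was not tested. Calls over all genes, 7 in the test as reported, were 1 with no filter, 4 at a mean FPKM of at least 5, 1 with voom, 0 with the replicate block, and 1 to 495 when a library was left out. Whether replicates with the same number are pairs is not stated. Their deviations from the group means correlated at -0.439, -0.487 and -0.072. With 3 libraries in each group these values cannot decide it. The replicate block called 0 members. Low FPKM put 27 members under the filter, 12 of them without a read. Depth limits what can be said of those without a read.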
